A study of Mus musculus with 12 samples.

Results

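The comparison described here asked whether chronic hypoxia changed gene expression in the lung differently when endothelial cells had lost Nfat5. For each gene the change with hypoxia was taken in knockout lungs and in control lungs, and the control change was subtracted from the knockout change. This difference is called the interaction. A value below 0 means a smaller rise or a larger fall in knockout lungs, and a value above 0 means the reverse. The comparison used all 12 arrays of the series, in 4 groups of 3, and all 24704 genes with a symbol.

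Control mice were Nfat5fl/fl, meaning that they carried floxed alleles, and received the solvent miglyol. Knockout mice, labelled Nfat5(EC)-/-, had the gene ablated in endothelial cells by 1 mg tamoxifen injected on each of 5 days. Animals of both sexes were treated at 10 to 12 weeks of age and used after 2 to 3 weeks of recovery, and mice of either genotype then lived in normoxia or spent 21 days in hypoxia. The sources used here do not name the Cre driver. Only the knockout mice received tamoxifen, so in these groups the loss of the gene cannot be told apart from exposure to the drug. Whole lungs perfused free of blood were measured, so fewer cells of a type and less RNA per cell cannot be told apart. The design text counts 4 mice in each group, against 3 arrays analysed here. It adds that the authors left out lungs with foreign tissue or with too weak a response to hypoxia, so the samples were chosen in part on the outcome. Replicates are taken to be separate mice.

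NFAT5 is a transcription factor that switches on genes for osmolyte transport and chaperones when cells meet high salt, and it also responds to mechanical and inflammatory stimuli. In chronic hypoxia small pulmonary arteries gain smooth muscle and matrix, and endothelial cells take part by releasing vasoactive peptides and growth factors such as endothelin-1 and PDGF-B. The whole lung response to long hypoxia also includes metabolic genes and the genes of the circadian clock.

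The arrays carried RNA of lung in every group. Sftpc (alveolar type 2 cells), Ager (type 1 cells), Scgb1a1 (club cells) and the endothelial genes Pecam1 and Cdh5 lay at 11.4 or higher on the log2 scale in all arrays. Rag1 and Dntt, markers of thymocytes, were at 3.62 or lower against an array median of 4.55. Nfat5 itself was at 9.01, 9.39 and 8.92 in control normoxia and 8.59, 8.80 and 8.62 in knockout normoxia, and these arrays did not overlap (11.7% of all genes). In hypoxia it was at 8.61, 8.16 and 8.51 in controls and 8.17, 8.46 and 8.40 in knockouts, which overlapped. Its interaction was 0.35 ± 0.21 (SE, adjusted p = 0.68). Other lung cells also contribute Nfat5 RNA, and it is not stated whether the probes read the deleted part, so the level checks the labels only weakly. Y-linked genes were high in 2 of 3 arrays in both normoxia groups and in 1 of 3 in both hypoxia groups, so the sexes were unequal between oxygen states and equal between genotypes. Knockout normoxia replicate 2 and control hypoxia replicate 1 carried Ucp1, the thermogenic protein of brown fat, at 9.31 and 7.66, against 4.28 or lower elsewhere. For many lists, though not for all that moved, values are also given without these 2 arrays.

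Of the 24704 genes tested, 1 passed an adjusted p of 0.05 for the interaction, which is 0.00405% (limma with Benjamini-Hochberg adjustment). At an unadjusted p under 0.05 there were 2037 genes or 8.25%, with 1025 (4.15%) higher and 1012 (4.1%) lower. These last shares are the background against which counts of list members are read. In simulated data on the same 24704 genes, the interaction test recovered 5 of 50 genes with a true log2 difference of 0.5, 39 of 50 at 1 and 49 of 50 at 1.5, with 6 false calls. Moderate differences would therefore mostly not be called with 3 arrays a group. The simulation held 50 changed genes at each of 0.5, 1, 1.5 and 2. That many eases the adjusted threshold, and the data gave 1 call. The recovered shares at 1 and 1.5 may therefore be too high for these data. In the data Gdap10 at 1.45 and Reg3g at -1.83 had adjusted p of 0.142 and 0.574 (limma).

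The gene that passed was Gm10566, listed as a pseudogene in the RefSeq gene table. It has a placeholder symbol, lies outside the rule for named genes, and was named after its value was seen. It measured 7.74, 7.63 and 7.76 in control normoxia and 8.98, 9.04 and 9.09 in control hypoxia. In knockout lungs it measured 8.58, 8.68 and 8.58 in normoxia and 8.74, 8.53 and 8.84 in hypoxia. The control groups stood far apart, and the knockout groups overlapped and lay between them. The gene thus rose 2.50-fold with hypoxia in controls (log2 1.32 ± 0.09, adjusted p = 6.4e-05) and changed 1.06-fold in knockouts (adjusted p = 0.786). Its interaction was -1.24 ± 0.13 (95% interval -1.52 to -0.96, adjusted p = 0.0169, limma). It was also the gene called between genotypes in normoxia, 0.90 higher in knockouts (adjusted p = 0.0117, 1 of 24704 genes). The interaction stayed between -1.3 and -1.15 in the 12 fits that left out 1 array, while its call was lost in 9 of them, with adjusted p from 0.0207 to 0.104. It was kept without knockout hypoxia replicate 3 or 4 or control normoxia replicate 4.

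Gdap10, a long noncoding RNA gene, had the second smallest p. Its arrays read 5.62, 5.51 and 5.17 in control normoxia and 4.21, 3.93 and 3.92 in control hypoxia, while the knockout arrays spanned 4.76 to 5.00 in normoxia and 4.72 to 5.09 in hypoxia. The hypoxia change was -1.41 in controls (adjusted p = 0.000948) and 0.04 in knockouts. The interaction was 1.45 ± 0.20 with an adjusted p of 0.142, and it passed at 0.031 when control normoxia replicate 4 was left out. No other gene was near the threshold, and the next adjusted p was 0.574.

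**Figure D1:**
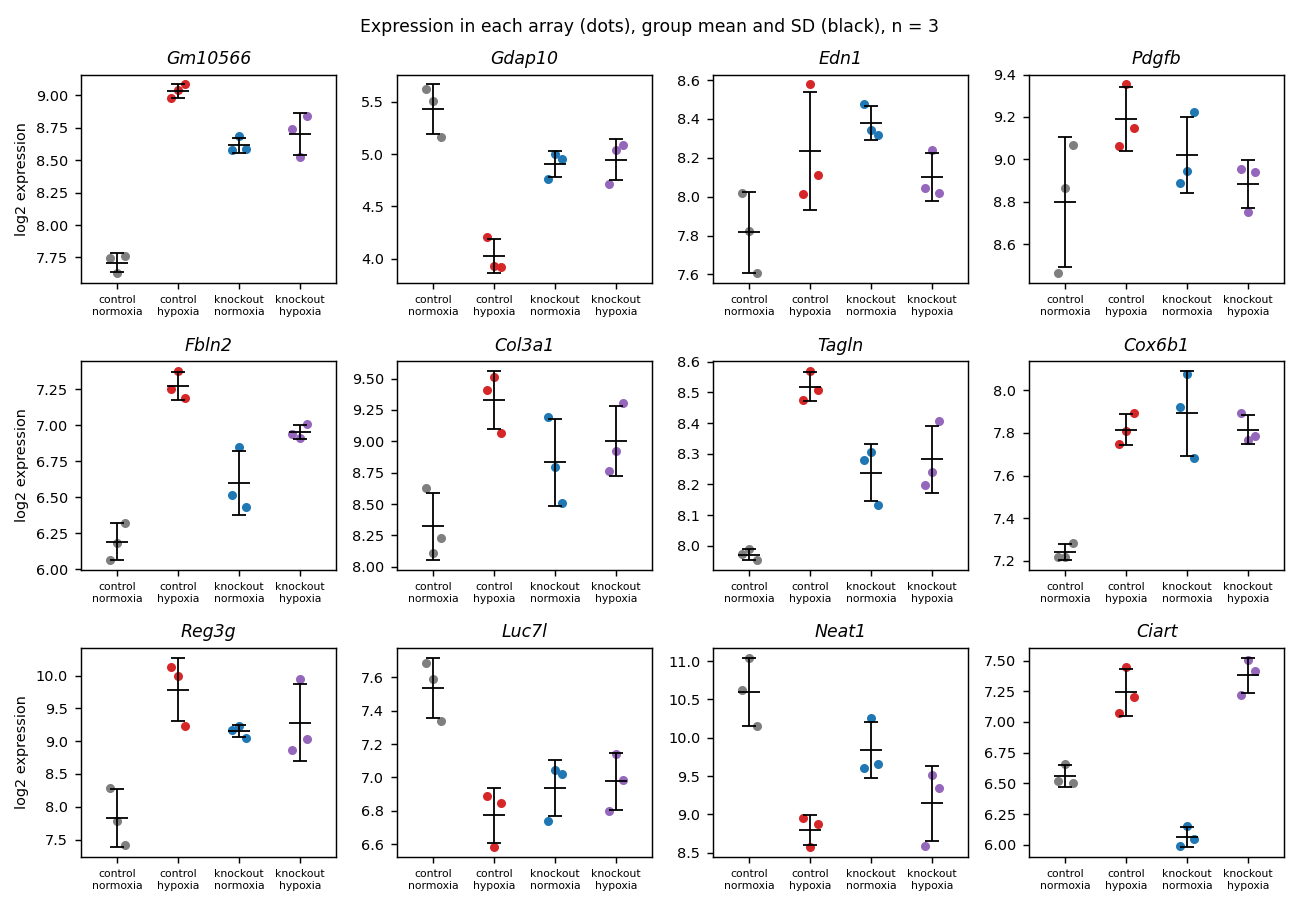
Log2 expression of 12 genes in each array (dots) by group, with the group mean and SD of 3 arrays in black. The y axes differ between panels and do not start at 0. In the Gm10566, Gdap10, Tagln and Luc7l panels the control groups do not overlap and the knockout groups do; in the Ciart panel both pairs of groups are apart and the knockout step is larger.

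The hypoxia response itself was present in both genotypes and its typical size was smaller in the knockout. Hypoxia changed 2839 genes in control lungs (11.5%) and 282 in knockout lungs (1.14%) at an adjusted p under 0.05. Of these, 209 were called in both, 2630 in controls alone and 73 in knockouts alone. A call in 1 genotype does not show a difference between them, so sizes were compared on genes chosen by the change averaged over both genotypes. In a balanced layout this average does not depend on the interaction estimate. It called 3622 genes (14.7%), with 1795 higher (7.27%) and 1827 lower (7.4%).

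Among the 1795 genes that rose on average, 1318 (73.4%) rose less in knockout lungs. The median rise was 0.47 in controls and 0.32 in knockouts, and the median interaction was -0.14. Of these genes 236 (13.1%) had an interaction toward a smaller rise at an unadjusted p under 0.05, and 30 (1.67%) toward a larger one. Among the 1827 genes that fell on average, 1489 (81.5%) fell less in knockout lungs. Their median change was -0.57 in controls and -0.33 in knockouts, with a median interaction of 0.26, and 365 (20%) against 18 (0.985%) had an unadjusted p under 0.05. Genes on 1 array are not independent, so these shares carry no error of their own and are a description of the 12 arrays. When each array was left out in turn, the shares ranged from 65.6% to 83.2% for rises and from 75.5% to 87.4% for falls. Those fits are unbalanced, so in them the choice of genes by the average is not independent of the interaction estimate.

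More of the difference lay in normoxia than in hypoxia. For the genes that rose, the median of knockout minus control was 0.09 in normoxia and -0.04 in hypoxia. For the genes that fell, it was -0.15 in normoxia and 0.10 in hypoxia. By these medians normoxic knockout lungs lay slightly toward the hypoxic level, and hypoxic knockout lungs lay slightly short of hypoxic controls. Over all genes the SD of the change was 0.34 in controls and 0.24 in knockouts (r between them 0.55 across genes, which are not independent replicates).

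**Figure D2:**
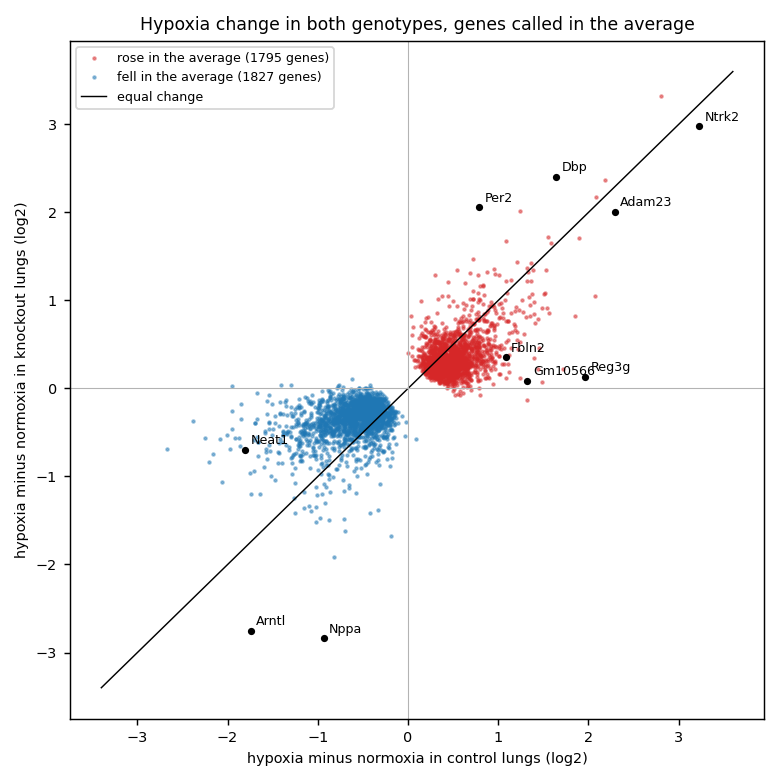
Hypoxia minus normoxia (log2) in control lungs (x axis) and knockout lungs (y axis) for the 3622 genes called in the average over genotypes, 1 dot per gene, with a line of equal change and named genes in black. Most red dots (1318 of 1795 genes) lie below the line and most blue dots (1489 of 1827) above it, while Ntrk2 and Adam23 lie near it and Arntl, Dbp and Per2 lie farther from 0 in the knockout.

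The largest responders to hypoxia had changes of the same sign in both genotypes, and none had an interaction that passed the adjusted threshold. Ntrk2, which encodes the neurotrophin receptor TrkB, was at 4.55, 4.19 and 4.73 in control normoxia and 7.53, 7.70 and 7.91 in control hypoxia. In knockout lungs it was at 4.20, 4.79 and 4.65 and then at 7.28, 7.52 and 7.79. It rose 9.35-fold in controls and 7.90-fold in knockouts, and the interaction was -0.24 ± 0.27 with a 95% interval from -0.82 to 0.34. Adam23, a membrane protein of the ADAM family without protease activity, rose 4.89-fold and 4.02-fold, with an interaction of -0.28 ± 0.39. Another 3 of the 6 largest average rises were immunoglobulin variable segments, whose interactions of 0.52, 0.19 and 0.10 had standard errors of 0.89 to 1.36. Sult1d1, a sulfotransferase, was 1.64 lower in controls after hypoxia and 1.20 lower in knockouts, with an interaction of 0.44 ± 0.59. Other large falls were less alike. Phxr4 fell in controls by 2.25 and was 0.56 lower in knockouts (interaction 1.68 ± 0.63, unadjusted p = 0.0203). Dnah12, a dynein heavy chain of motile cilia, fell in controls by 2.21 and was 0.84 lower in knockouts (interaction 1.37 ± 0.54, unadjusted p = 0.0266).

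The 24 genes with the smallest interaction p, 12 in each direction, were mostly genes that moved in control lungs. In 19 of them the control change passed the adjusted threshold and the knockout change did not, in 4 the knockout change alone passed, in 0 both did, and in 1 neither did. The sizes ran from 0.47 to 1.93 and the largest unadjusted p was 0.00147. These genes were picked for their interaction, so the counts describe the pick. The 4 with a knockout change alone were Dpy19l3, which adds mannose to tryptophan residues, Rps3a2, Hmgb1-ps9 and Maoa. Maoa encodes monoamine oxidase A, which breaks down serotonin and noradrenaline. It read 7.95, 8.13 and 8.09 in control normoxia, 8.10, 8.13 and 8.15 in control hypoxia, and 8.25, 8.14 and 8.19 in knockout normoxia. In knockout hypoxia it read 7.82, 7.74 and 7.83, below every other array. It fell in knockout lungs by 0.39 (adjusted p = 0.0346), with an interaction of -0.47 ± 0.11. Among the others, Tbc1d13, a Rab GTPase-activating protein, and Fbxo21, an F-box protein, rose in controls by 0.55 and 0.52 and changed by -0.07 and -0.08 in knockouts. Syn2, a synapsin, rose by 0.97 in controls and was 0.31 higher in knockouts. In the other direction Lrrk2, a kinase abundant in alveolar type 2 cells, fell in controls by 0.45 and was 0.18 higher in knockouts. Phka1, a phosphorylase kinase subunit, fell in controls by 0.55, and Apex2, a DNA repair endonuclease, fell by 0.59. In knockouts they changed by 0.003 and -0.01.

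Mir330, also among these 24, is a microRNA gene. Its mature sequences are shown because they are the products of this locus, with the seed (bases 2 to 8) in capitals, from RefSeq on GRCm38.p6, chromosome 7, plus strand.
mmu-miR-330-5p: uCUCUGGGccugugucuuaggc
mmu-miR-330-3p: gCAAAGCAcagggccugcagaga
The seeds of the 5p and 3p arms differ. The probe set reads the gene locus and not the mature arms. It was at 5.85, 5.86 and 5.57 in control normoxia and 5.16, 5.07 and 5.18 in control hypoxia. The knockout arrays lay between 5.11 and 5.41 in both oxygen states. The locus fell in controls by 0.62 (adjusted p = 0.00535), changed by 0.11 in knockouts, and had an interaction of 0.73 ± 0.14.

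Gene lists were compared by the number of members with an unadjusted p under 0.05 and by the median interaction, beside a median of -0.001 and background shares of 4.15% higher and 4.1% lower over all genes. Over all genes 49.8% had an interaction above 0 and 50.2% below. Of 56 lists, 41 had a median below 0 and 15 above. No list member passed the adjusted threshold. At an adjusted p under 0.05, 5.36% of all genes rose and 6.14% fell with hypoxia in controls, against 0.64% and 0.502% in knockouts. A count of 0 members in knockouts is therefore near the background.

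Matrix genes gave a smaller rise in knockout lungs. Of 18 collagen genes measured, 14 rose with hypoxia in control lungs (5.36% of all genes rose there) and 0 in knockout lungs (0.64%), where 5 of them were still 0.41 or more higher. The median change was 0.74 in controls and 0.26 in knockouts. The interaction was below 0 for 17 of 18, with 7 lower and 0 higher at an unadjusted p under 0.05, and its median was -0.39. Col3a1, a fibrillar collagen of vessel walls, read 8.62, 8.11 and 8.23 in control normoxia and 9.41, 9.51 and 9.06 in control hypoxia, with no overlap. In knockout lungs it read 9.20, 8.80 and 8.51 and then 8.76, 8.93 and 9.31, which overlapped. It rose 2.01-fold in controls (adjusted p = 0.0126) and was 1.12-fold higher in knockouts, with an interaction of -0.84 ± 0.29 (adjusted p = 0.574). Col5a1, which starts collagen fibrils, had an interaction of -0.57, Col15a1, a basement membrane collagen, -0.74, and Col4a1, of the vascular basement membrane, -0.57. The median over the 18 ranged from -0.34 to -0.56 as each array was left out. Without the 2 arrays with Ucp1 it was -0.50 with 7 lower.

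Of 30 other matrix genes, 20 rose with hypoxia in controls and 7 in knockouts (5.36% and 0.64% of all genes). The interaction was below 0 for 29 of them and its median was -0.29, with 5 lower and 0 higher. Fbln2, a fibulin that links elastic fibres to basement membrane, showed the smallest p. It read 6.07, 6.18 and 6.32 in control normoxia and 7.25, 7.38 and 7.19 in control hypoxia, and 6.51, 6.85 and 6.43 in knockout normoxia and 6.94, 6.91 and 7.01 in knockout hypoxia. Neither pair of groups overlapped, as in 27.7% of all genes in controls and 19.8% in knockouts. The knockout arrays lay above the controls in normoxia and below them in hypoxia, without overlap in either state (11.7% and 9.74% of all genes). The gene rose 2.12-fold in controls and was 1.28-fold higher in knockouts (adjusted p = 0.187), with an interaction of -0.73 ± 0.16. Thbs1 (thrombospondin-1, which activates latent TGF-beta) had an interaction of -0.74 and Mmp14 (a membrane metalloproteinase) -0.52. Mmp2, a gelatinase, rose in both genotypes, by 1.54 and 0.92 (interaction -0.62). Tnc, the matricellular protein tenascin-C, rose by 1.86 in controls and was 0.82 higher in knockouts. Eln, elastin, was 1.06 higher in controls and 0.28 higher in knockouts, and neither change passed. Mfap4, Mfap5, Postn and Fbln5 had interactions between -0.05 and -0.02.

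Contractile smooth muscle genes showed the same order. All 18 measured had an interaction below 0, the median was -0.36, and 6 were lower at an unadjusted p under 0.05. With hypoxia 7 rose in control lungs (5.36% of all genes) and 0 in knockout lungs (0.64%), with median changes of 0.30 and -0.06. Tagln (SM22, an actin-binding protein) read 7.97, 7.99 and 7.95 in control normoxia and 8.48, 8.57 and 8.51 in control hypoxia. It read 8.28, 8.30 and 8.13 in knockout normoxia and 8.20, 8.24 and 8.41 in knockout hypoxia. The control arrays were separated by more than their spread, and the knockout arrays overlapped and lay in the gap. The interaction of Tagln was -0.50 ± 0.11 (95% interval -0.75 to -0.25, adjusted p = 0.574). Lmod1 (leiomodin-1, an actin nucleator) rose by 0.94 in controls and was 0.25 higher in knockouts. Myh11, the smooth muscle myosin heavy chain, rose by 0.36 in controls and changed by -0.04. The interaction of Acta2, alpha smooth muscle actin, was -0.26 with an unadjusted p of 0.085. Without the 2 arrays with Ucp1 the median was -0.29 with all 18 below 0 and 5 lower. Pericyte markers had a median interaction of -0.10 and 0 of 11 past an unadjusted p of 0.05, and fibroblast markers -0.11 with 2 of 14 lower. These medians without the 2 arrays were -0.19 and -0.12, with 0 past in either list.

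Among vasoactive genes the endothelin gene stood first. Edn1, which encodes the vasoconstrictor endothelin-1, read 8.02, 7.82 and 7.61 in control normoxia and 8.02, 8.58 and 8.11 in control hypoxia. It read 8.48, 8.35 and 8.32 in knockout normoxia and 8.04, 8.24 and 8.02 in knockout hypoxia. Knockout lungs were above all controls in normoxia, and their hypoxic arrays were below their normoxic ones. The change with hypoxia was 0.42 in controls (adjusted p = 0.089) and -0.28 in knockouts (adjusted p = 0.486). The interaction was -0.70 ± 0.21, with an unadjusted p of 0.0063 and an adjusted p of 0.574. Nos2, inducible nitric oxide synthase, had -0.49. The other 21 of 23 vasoactive genes did not pass an unadjusted p of 0.05, and the list's median was 0.08 (-0.03 without the 2 arrays with Ucp1).

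Growth factor and receptor genes gave scattered values. Pdgfb, the endothelial mitogen for pericytes and smooth muscle, read 8.46, 8.87 and 9.07 in control normoxia and 9.06, 9.36 and 9.15 in control hypoxia. In knockout lungs it read 8.89, 8.95 and 9.22 and then 8.96, 8.75 and 8.94. The groups overlapped in both genotypes, and the hypoxic knockout arrays were below all hypoxic control arrays. The change was 0.39 in controls and -0.14 in knockouts, neither called, and the interaction was -0.53 ± 0.21 (unadjusted p = 0.0291, adjusted p = 0.592). Vegfb had -0.41, and the list of VEGF, angiopoietin and PDGF signalling a median of -0.10 with 2 of 23 lower (-0.17 with 4 lower and 1 higher without the 2 arrays with Ucp1). Vegfa had 0.10 ± 0.13 and fell with hypoxia in controls by 0.37. In the BMP pathway, whose receptor gene Bmpr2 is mutated in heritable pulmonary hypertension, the median was -0.005. Bmp2, a ligand, rose 1.90-fold in controls and was 1.28-fold higher in knockouts (interaction -0.57 ± 0.19), and Bmpr2 had 0.32 ± 0.29. In the TGF-beta pathway Inhba and Tgfbi, an activin subunit and a matrix target, had -0.58 and -0.49, and 2 of 18 were lower. Without the 2 arrays with Ucp1, 3 were lower and 1 higher. Kcnk3, the potassium channel TASK-1 that sets the resting potential of pulmonary artery smooth muscle, rose by 0.63 in controls and changed by 0.01 in knockouts (interaction -0.62 ± 0.25).

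**Figure D3:**
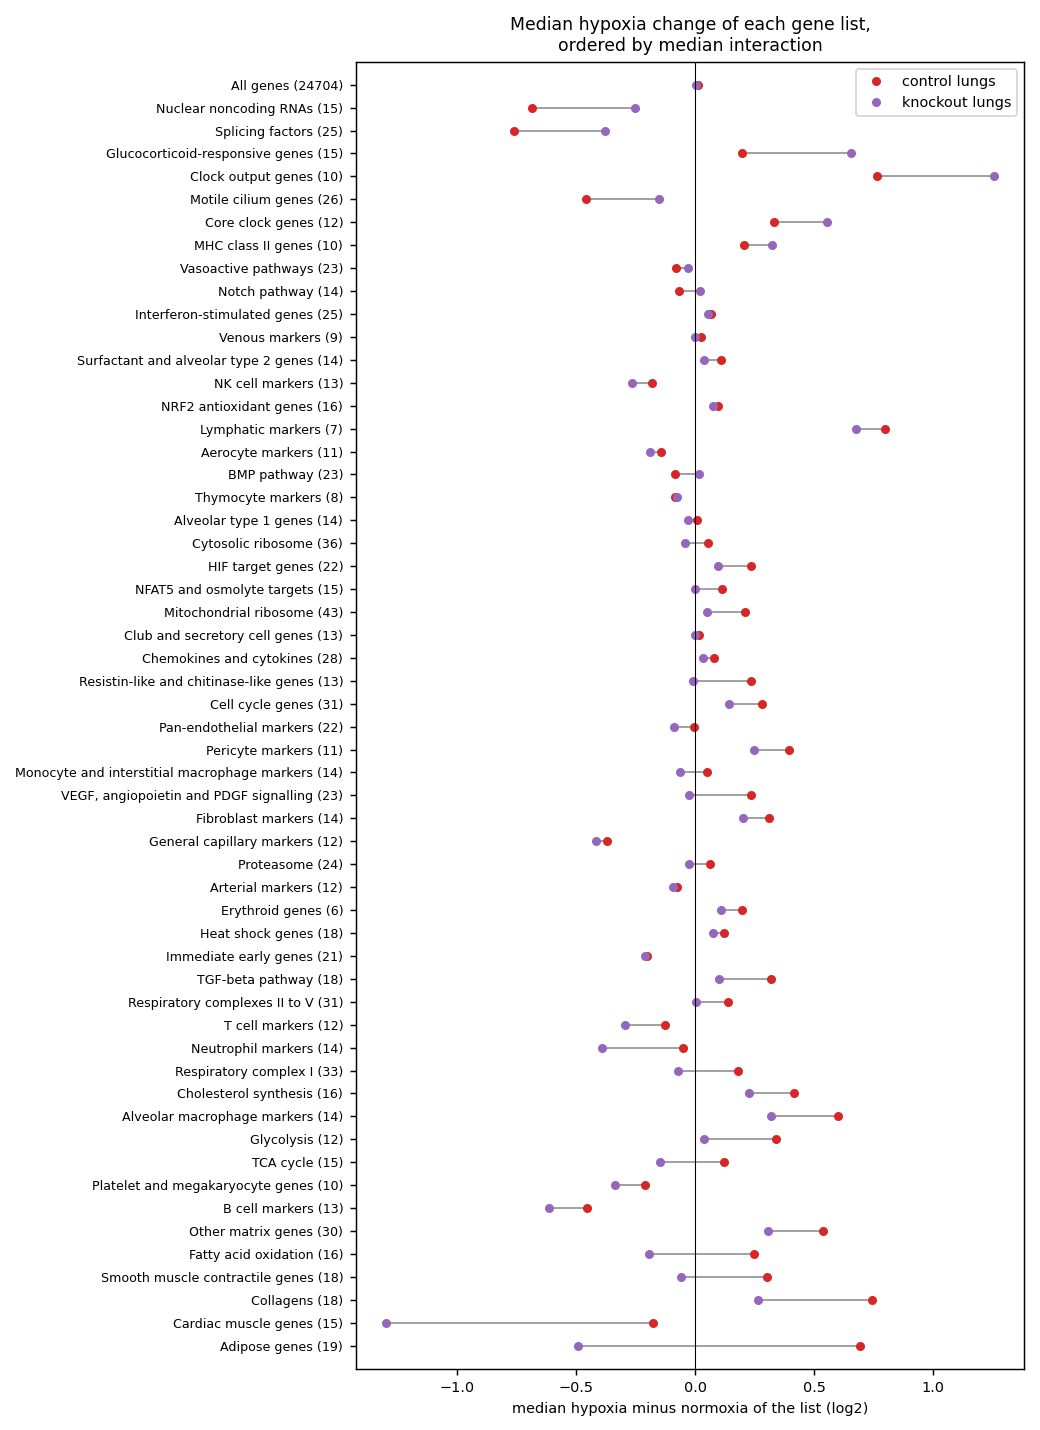
Median change with hypoxia (log2, x axis) of each gene list in control lungs (red) and knockout lungs (purple), with the number of measured genes in brackets and lists ordered by the median interaction. Collagens (0.74 and 0.26), other matrix genes (0.54 and 0.31) and smooth muscle genes (0.30 and -0.06) sit lower in the knockout, splicing factors (-0.76 and -0.38) sit closer to 0, and pan-endothelial markers lie at -0.003 and -0.09; the Y-linked list is left out.

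In the lists of blood endothelial cells 1 gene passed an unadjusted p of 0.05 for the interaction. Pan-endothelial markers had a median of -0.09 with 0 of 22 past an unadjusted p of 0.05, and their changes with hypoxia were -0.003 in controls and -0.09 in knockouts. Aerocyte, arterial and venous markers had medians of -0.004, -0.12 and 0.02, with 0 genes past. General capillary markers had median changes with hypoxia of -0.37 in controls and -0.42 in knockouts, with 1 of 12 lower in the interaction. The pan-endothelial median without the 2 arrays with Ucp1 was -0.20 with 19 of 22 below 0 and 0 past. The general capillary median was then -0.17 with 2 lower, and the venous median -0.13 with 1 lower. The arterial median was -0.15 with 1 lower, and the aerocyte median -0.04 with 0 past. Of 7 lymphatic markers, 5 rose and 1 fell in controls (5.36% and 6.14% of all genes). In knockouts 3 rose and 1 fell (0.64% and 0.502%). The list had median changes of 0.80 in controls and 0.68 in knockouts and a median interaction of -0.002 (0.12 without the 2 arrays). The gene that fell was Lyve1, the hyaluronan receptor, with changes of -1.40 in controls and -0.85 in knockouts. Targets of NFAT5 and osmolyte transport genes had a median of -0.04, with 1 of 15 lower. The Notch list had a median of 0.03 with 1 of 14 higher, which was Rbpj, the transcription factor of the pathway (0.58 ± 0.20). The Notch median without the 2 arrays was -0.09 with 0 higher and 1 lower.

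The promoter of Fbln2 is shown because its interaction was among the 12 lowest by p and its 250 bases before the start hold the letters TGGAAA, the core that NFAT5 binds. The motif is in capitals, in the RefSeq promoter on GRCm38.p6, plus strand of chr6:91212514-91212763, written 5′ to 3′.
Fbln2: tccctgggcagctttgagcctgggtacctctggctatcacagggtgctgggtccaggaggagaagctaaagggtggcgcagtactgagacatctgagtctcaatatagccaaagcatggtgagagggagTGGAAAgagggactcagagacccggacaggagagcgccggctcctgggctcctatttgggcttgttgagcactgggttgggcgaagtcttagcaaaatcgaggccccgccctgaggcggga
The match starts 121 bases before the gene's start. The letters TGGAAA or their reverse complement TTTCCA occur in 18.6% of 32851 promoter windows of this length. Of the 24 genes with the smallest interaction p, 17 had a promoter entry, and 5 of those held TGGAAA on either strand in any of their windows. The shares over all windows count single windows, so they are not like for like with these counts of genes. The hypoxia response element core ACGTG (reverse complement CACGT) was in 1 of the 17, against 16.6% of all windows. The window of Edn1 at chr13:42301226-42301475 held neither. A match of letters is a description and not a binding site.

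Most energy metabolism genes had an interaction below 0, and brown fat RNA moved with them. The median change with hypoxia was 0.25 in controls and -0.19 in knockouts for fatty acid oxidation, and 0.12 and -0.15 for the TCA cycle. The median interaction was -0.20 for 33 complex I genes, with 5 lower, and -0.17 for 31 genes of complexes II to V, with 8 lower and 0 higher. Cox6b1, a cytochrome c oxidase subunit, read 7.22, 7.22 and 7.28 in control normoxia and 7.75, 7.81 and 7.89 in control hypoxia. It read 7.92, 8.07 and 7.68 in knockout normoxia and 7.89, 7.77 and 7.78 in knockout hypoxia. The normoxic controls were below all other arrays, and the other groups overlapped. It rose by 0.58 in controls (adjusted p = 0.00733) and changed by -0.08 in knockouts, with an interaction of -0.65 ± 0.14. Atp5e, an ATP synthase subunit, had -0.94 ± 0.30 and Sdhb, of succinate dehydrogenase, -0.53 ± 0.16. All 16 fatty acid oxidation genes were below 0, with a median of -0.34 and 4 lower, among them Cpt2, Hadh and Etfb. In the TCA cycle 14 of 15 were below 0, with a median of -0.24. Without the 2 arrays with Ucp1 these medians were -0.13 and -0.14 for the respiratory lists, -0.14 for fatty acid oxidation (1 lower) and -0.03 for the TCA cycle (1 lower).

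Glycolysis genes had a median interaction of -0.22, with 4 of 12 risen in controls and 0 in knockouts (5.36% and 0.64% of all genes). Pfkl, liver phosphofructokinase, rose by 1.14 in controls and was 0.46 higher in knockouts (interaction -0.68 ± 0.18), and Pfkm, the muscle form, had -0.65 ± 0.16. The median was -0.23 without the 2 arrays. Other HIF targets had a median of -0.04. Slc2a1, the glucose transporter GLUT1, had -0.14 ± 0.16, while Egln3, an oxygen-sensing hydroxylase, had -0.56 and Pfkfb3, which makes the activator of phosphofructokinase, 0.50. Cholesterol synthesis had a median of -0.20, with 6 of 16 lower and 0 higher. Dhcr7, the last reductase of the pathway, rose by 0.67 in controls and was 0.18 higher in knockouts. Cyp51, the lanosterol demethylase, rose 2.17-fold in controls and was 1.30-fold higher in knockouts, and Fdps, farnesyl diphosphate synthase, had an interaction of -0.71. Without the 2 arrays the cholesterol list's median was -0.11 with 5 lower.

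Adipose and cardiac muscle genes had the lowest medians, with the highest list means in single arrays. For 19 adipose genes the median interaction was -1.19 with 9 lower. In controls the list mean ranged from 6.07 to 6.16 under normoxia and from 6.28 to 7.48 under hypoxia. In knockouts it ranged from 6.29 to 8.08 and from 6.06 to 6.45. The values of 7.48 and 8.08 came from the 2 arrays with Ucp1. Adipoq, the adipocyte hormone adiponectin, read 6.59 and 6.82 in those arrays and 5.06 or lower in the others. For 15 cardiac genes the median was -1.12 with 6 lower, and the list mean reached 8.04 and 7.07 in knockout normoxia replicates 2 and 4, against 6.86 or lower elsewhere. Nppa, the atrial natriuretic peptide, read 11.94 and 9.41 in those arrays and Myl7, atrial myosin light chain, 8.91 and 8.05. The knockout hypoxia arrays had cardiac list means of 5.62, 6.12 and 5.91, below every other array (6.20 or higher). Without the 2 arrays with Ucp1 the adipose median was -0.41 with 4 lower and 17 of 19 below 0. The cardiac median was then -0.61 with 1 lower and 14 of 15 below 0.

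**Figure D4:**
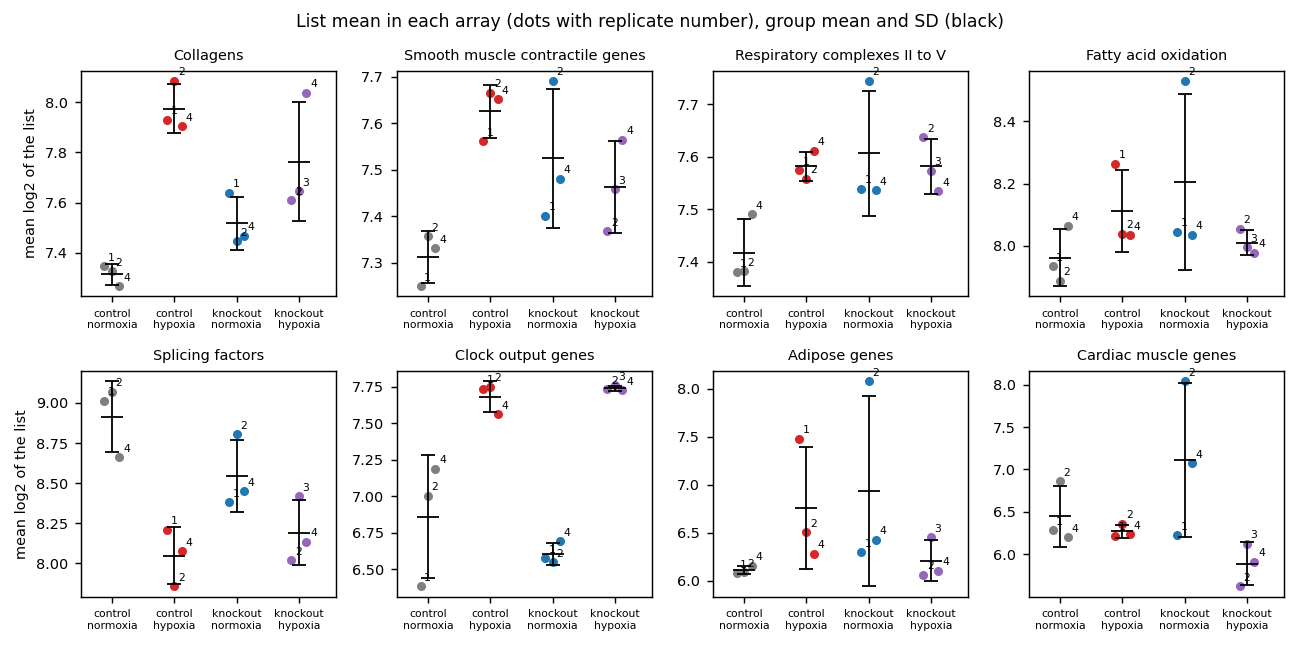
Mean log2 expression of the genes of 8 lists in each array (dots with the replicate number), with the group mean and SD of 3 arrays in black; y axes differ between panels and do not start at 0. Collagens and smooth muscle genes are lowest in control normoxia; knockout normoxia replicate 2 is the highest array for adipose genes (8.08), cardiac genes (8.04) and fatty acid oxidation (8.53).

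RNA processing genes fell less in knockout lungs. Of 25 splicing factors, 22 fell with hypoxia in controls (6.14% of all genes) and 2 in knockouts (0.502%). The interaction was above 0 for 24, with 10 higher and 0 lower, and its median was 0.44. Luc7l, a U1 snRNP-associated factor, read 7.68, 7.59 and 7.33 in control normoxia and 6.89, 6.58 and 6.85 in control hypoxia. It read 6.74, 7.04 and 7.02 in knockout normoxia and 6.80, 7.14 and 6.99 in knockout hypoxia. The normoxic controls were above all other arrays, and the knockout groups overlapped. It fell in controls by 0.76 and changed by 0.04 in knockouts (interaction 0.80 ± 0.19). Clk1 and Clk2, kinases that phosphorylate SR proteins, had interactions of 1.10 ± 0.35 and 0.65 ± 0.21.

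Noncoding RNAs kept in the nucleus moved together with these genes. Their list had a median interaction of 0.45, with 4 of 15 higher. Neat1, the scaffold of paraspeckles, read 10.62, 11.04 and 10.15 in control normoxia and 8.95, 8.57 and 8.87 in control hypoxia. In knockout lungs it read 9.60, 10.26 and 9.66 and then 8.59, 9.51 and 9.34. Both pairs of groups were apart, and it fell in controls by 1.80 (adjusted p = 0.0051) and was 0.69 lower in knockouts (adjusted p = 0.298), with an interaction of 1.11 ± 0.38. Firre, which anchors chromatin at the nuclear matrix, and Kcnq1ot1, an imprinted antisense RNA, had 0.95 and 0.99. The mean of Neat1 and Malat1, both in this list, went from 11.62 ± 0.29 to 10.24 ± 0.14 with hypoxia in controls (SD, n = 3). In knockouts it went from 11.11 ± 0.28 to 10.50 ± 0.42. Whether this mean follows nuclear RNA in general was not tested. With this mean as a covariate the splicing median was 0.04. The nuclear noncoding median was -0.03, which is partly built in because that list holds both genes. The covariate also took up most of the hypoxia change, leaving 0 genes called in controls. The collagen and smooth muscle medians under that covariate were -0.42 and -0.39. The splicing median without the 2 arrays with Ucp1 was 0.65 with 16 of 25 higher, and the nuclear noncoding median 0.69 with 9 of 15 higher.

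Motile cilium genes had a median of 0.29, with 5 of 26 higher and 1 lower (8 higher and 1 lower without the 2 arrays with Ucp1). In controls 12 fell (6.14% of all genes) and in knockouts 0 (0.502%). The 5 higher were Dnah11, Cfap54, Cfap47, Dnah12 and Spag17, which encode dynein heavy chains and axoneme proteins. Dnah11 fell in controls by 0.72 and was 0.12 lower in knockouts (interaction 0.60 ± 0.15). Rsph1, a radial spoke protein, was the lower gene, at -0.60, and Foxj1, the master regulator of motile cilia, had 0.10.

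Several clock genes had larger changes in the knockout. Of 10 clock output genes, 7 rose in controls and 7 in knockouts (5.36% and 0.64% of all genes). In the interaction 9 were above 0 and 1 was higher at an unadjusted p under 0.05. Of 12 core clock genes, 9 were above 0 and 3 were higher. Nfil3, a repressor in the clock, had -0.52 ± 0.30. Ciart, a transcriptional repressor of the clock, read 6.52, 6.66 and 6.50 in control normoxia and 7.07, 7.45 and 7.20 in control hypoxia. It read 5.99, 6.15 and 6.04 in knockout normoxia and 7.22, 7.50 and 7.41 in knockout hypoxia. Both pairs of groups were apart, the knockouts were below the controls in normoxia, and the genotypes overlapped in hypoxia. It rose 1.60-fold in controls (adjusted p = 0.00607) and 2.49-fold in knockouts (adjusted p = 0.000288), with an interaction of 0.63 ± 0.16. Per2 and Per1, repressors of the core loop, had 1.27 ± 0.48 and 0.77 ± 0.33. Per2 rose 4.17-fold in knockouts and was 1.73-fold higher in controls (adjusted p = 0.153). Its arrays read 5.91, 7.29 and 7.46 in control normoxia and 5.48, 5.85 and 6.33 in knockout normoxia, against 7.54 to 8.15 in all hypoxic arrays. Arntl (BMAL1), the activator of the loop, fell in both genotypes, with changes of -1.75 in controls and -2.75 in knockouts and an interaction of -1.01 ± 0.47. Dbp, a clock output factor, rose 3.12-fold and 5.30-fold (interaction 0.77 ± 0.58).

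The difference between Dbp and Arntl, which follows the phase of the clock, was 2.52 ± 1.82 in control normoxia and 0.91 ± 0.96 in knockout normoxia (SD, n = 3), and 5.91 ± 0.29 and 6.07 ± 0.13 in hypoxia. It spread widely within both normoxic groups and little within the hypoxic ones. The hour at which tissue was taken is not stated, and its part in the result was not tested. Both are clock genes and their difference nearly separates normoxia from hypoxia, so with it as a covariate a smaller clock median is built in (output genes 0.35 to -0.01, core genes 0.27 to 0.17). The collagen median under it was -0.33 and the smooth muscle median -0.37.

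The promoter of Ciart is shown because it holds 3 copies of the E-box CACGTG, the site read by the CLOCK and BMAL1 pair, in capitals below. It is the RefSeq promoter on GRCm38.p6, minus strand of chr3:95882229-95882478, written 5′ to 3′.
Ciart: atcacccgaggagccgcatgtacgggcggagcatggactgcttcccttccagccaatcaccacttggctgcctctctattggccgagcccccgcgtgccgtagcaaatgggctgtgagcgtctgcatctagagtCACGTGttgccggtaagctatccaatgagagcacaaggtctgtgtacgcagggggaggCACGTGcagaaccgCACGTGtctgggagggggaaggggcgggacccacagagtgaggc
CACGTG reads the same on both strands, contains ACGTG, and was added to the search after this promoter was seen. It occurs in 6.02% of the 32851 windows. Among other clock genes named above, Per1 also held CACGTG, while Dbp, Arntl and Nfil3 did not.

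Some glucocorticoid-responsive genes also had larger changes in the knockout. Of 15 measured, 5 rose in knockouts (0.64% of all genes) and 2 in controls (5.36%). In the interaction 4 were higher and 0 lower, and the median was 0.36. The median without the 2 arrays with Ucp1 was 0.35 with 0 higher. The 4 were Per1, the metallothioneins Mt1 and Mt2, and Zbtb16, a zinc finger repressor. Mt2 was at 7.77, 7.49 and 7.54, then 7.70, 8.25 and 8.18, in controls, and at 7.41, 7.31 and 7.06, then 8.54, 8.08 and 8.31, in knockouts. The control arrays overlapped and the knockout arrays did not. It rose in knockouts by 1.05 (adjusted p = 0.0111) and was 0.45 higher in controls (adjusted p = 0.098). Hspa1a, an inducible HSP70, had 1.27 ± 0.54 in the heat shock list, where 3 of 18 were higher and the median was -0.13.

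The members with the smallest p in the club cell, chitinase-like and neutrophil lists had low values, while the list medians were nearer 0. Reg3g, an antibacterial lectin, read 8.29, 7.78 and 7.41 in control normoxia and 10.13, 10.00 and 9.23 in control hypoxia. It read 9.17, 9.23 and 9.05 in knockout normoxia and 8.87, 9.95 and 9.03 in knockout hypoxia. It rose 3.89-fold in controls (adjusted p = 0.00535) and changed 1.10-fold in knockouts, with an interaction of -1.83 ± 0.43 (adjusted p = 0.574). Chia1, acidic chitinase, rose in controls by 0.69 and changed by 0.03 in knockouts (interaction -0.66 ± 0.15). Bpifa1, an airway surface protein, had -1.48 ± 0.61 and Ltf, lactoferrin, -2.80 ± 0.85, and in neither was the change called in either genotype. Lcn2, an antibacterial siderophore-binding protein, rose in both genotypes and had 0.33 ± 0.25. The 13 club and secretory cell genes had a median of -0.05, with 5 above 0 and 3 lower (1 lower without the 2 arrays with Ucp1), and Scgb1a1 had 0.03 ± 0.09. Surfactant and alveolar type 2 genes had a median of 0.02 with 0 of 14 past an unadjusted p of 0.05 (-0.02 with 1 higher without the 2 arrays).

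Immune lists had medians from -0.28 to 0.10. MHC class II and interferon-stimulated genes had medians of 0.10 and 0.03, with 0 of 10 and 1 of 25 lower. Both changed sign without the 2 arrays with Ucp1, to -0.19 with 9 of 10 below 0 and to -0.04, and the MHC class II median ranged from -0.12 to 0.21 as each array was left out. Alveolar macrophage markers had -0.22, with 4 of 14 lower and 1 higher, and in them Trem2, a lipid receptor of macrophages, rose by 1.29 in controls and was 0.62 higher in knockouts. Neutrophil and B cell markers had -0.19 and -0.28, with 2 lower in each, and T cell markers -0.19 with 1 of 12 in each direction. Medians without the 2 arrays were -0.33 for alveolar macrophage (1 lower, 2 higher), -0.20 for neutrophil, -0.47 for B cell and -0.32 for T cell markers. Monocyte and interstitial macrophage markers went from -0.10 to -0.25. NRF2 antioxidant genes had a median of 0.002 with 0 of 16 past, and of -0.05 with 2 lower without the 2 arrays.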

How the data were processed

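Whole lungs of 12 mice were measured on Affymetrix arrays with biotinylated cRNA, per the labels. The authors deposited log2 expression values, made with RMA per the submitters' processing notes; the version, probe annotation and genome build are not given in the sources used. RMA corrects background, brings arrays to the same distribution and summarises probes. All 12 arrays held the same set of values (largest gap between ranks 0, median 4.55), so the total RNA of a cell is not measured. The values ran from 2.41 to 13.7.

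The platform annotation paired 24705 of 25428 probe sets with 1 symbol and 723 with none. Of duplicates the probe set with the higher mean was kept, which left 24704 genes. limma 3.58.1 in R 4.3.3 fitted 4 group means (8 residual and 3.61 prior degrees of freedom). Tests were two-sided, p-values were Benjamini-Hochberg adjusted over all genes, and calls required an adjusted p under 0.05. Errors are standard errors unless called SD. No filter on low values was used, so no gene was lost to one. The fit was tested on simulated data.

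The comparison, the 56 lists (975 of 1042 members measured) and the named genes were chosen with earlier results of these data known, so no list was tested as a set and no p was adjusted over a list alone. Genes were named by a rule. Among genes without a placeholder symbol and with a mean at or above the array median, it took adjusted calls and then the smallest interaction p, to 12 in each direction. It added the 6 largest average rises and falls, up to 3 members of each list by p, and a fixed set of tissue and pathway genes. Other list members named in the text were chosen after their values were seen. Over all genes, same-numbered arrays showed no common deviation (r from -0.25 to 0.28 over 15 pairs), and no pair of arrays was identical. Y-linked means did follow the number in normoxia. Replicates 1, 2 and 4 were at 2.98, 6.66 and 6.12 in knockouts and 3.05, 6.69 and 6.18 in controls. In hypoxia replicates 2 and 4 were at 5.36 and 3.26 in knockouts and 3.08 and 5.34 in controls. Erythroid means also followed the number in normoxia, and adipose means did not. Pairing was not tested. Alternatives were leaving out each array, the replicate block, a filter, an intensity trend, a robust prior, array weights, covariates for Y-linked genes, Neat1 and Malat1, and Dbp minus Arntl, leaving out the 2 arrays with Ucp1, and fits of 1 genotype. Promoters and microRNAs came from RefSeq tables on GRCm38.p6, matched by symbol. The number of arrays limits the precision.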

Additional observations from a re-analysis of the deposited data

Results flagged for a closer look

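For Gm10566 the knockout change with hypoxia minus the control change was -1.24 on the log2 scale (limma, adjusted p = 0.0169), which is the test of the difference itself. All 3 control hypoxia arrays were above all control normoxia arrays, while the knockout groups overlapped. No explanation was tested. Over the 12 fits that left out 1 array the value ranged from -1.3 to -1.15.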

How the results depend on the processing

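The 24 genes with the smallest interaction p kept their direction and an unadjusted p under 0.05 in all 21 alternatives that fitted all 4 groups; they were picked for that p on the same arrays, so this is no sign of stability. No called result changed direction; among the 204 named genes, up to 16 uncalled signs changed, the most with Neat1 and Malat1 as covariate. As single arrays were left out, the interaction count at adjusted p ran from 0 to 3 and at unadjusted p from 1419 to 2920. Hypoxia counts ran from 808 to 3920 in controls, 71 to 258 in knockouts and 2254 to 4426 on average. Smaller responses ran from 65.6% to 83.2% of rises and 75.5% to 87.4% of falls, in fits that are unbalanced. Array weights gave 2 interaction calls and 508 knockout calls. The filter gave 1206 genes at unadjusted p, from fewer genes tested. Only the control arrays gave 1100 control calls. The Y-linked covariate gave 0 interaction calls and 1794 (control), 166 (knockout) and 2180 (average) hypoxia calls. The Neat1 and Malat1 covariate gave 0, 0, 25 and 2, with 100% of those 2 genes rising less, and Dbp minus Arntl gave 0, 7, 0 and 0. Without the 2 arrays with Ucp1 there were 0 interaction calls, 51 knockout calls, and smaller responses in 82.6% of rises and 84.9% of falls. The cause of these shifts in the counts was not tested. The replicate block gave 0 interaction calls, 40 knockout calls, 66.5% of rises and 79.1% of falls. Whether the replicate numbers pair the arrays is not known, so the block cannot be set aside. Gm10566 kept an interaction of -1.16 with the block, -1.24, -1.17 and -1.20 with the Y-linked, nuclear and clock covariates and -1.23 without the Ucp1 arrays, but was not called there (adjusted p 0.296, 0.0502, 0.106, 0.194 and 0.274), and Gdap10 passed with array weights (0.0477). With 3 arrays a group and equalised distributions, differences under about 1 on the log2 scale mostly could not be called. Larger estimates, such as those of Gdap10 (1.45) and Reg3g (-1.83), were not called in the main fit either.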

Other observations

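Mitochondrial ribosome genes had a median of -0.05, with 4 of 43 lower and 1 higher, and Mrpl28 had the smallest p (-0.53 ± 0.15). Cytosolic ribosome genes had a median of -0.03 with 1 of 36 in each direction, and proteasome genes -0.11 with 2 of 24 lower. Cell cycle genes had -0.09, with 1 of 31 lower, which was Aurka, a mitotic kinase (-0.41 ± 0.18). Without the 2 arrays with Ucp1 the ribosome medians were -0.12 (mitochondrial) and -0.11 (cytosolic).

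In alveolar type 1 genes the median was -0.02, with 1 of 14 past an unadjusted p of 0.05 in each direction. Igfbp2, an insulin-like growth factor binding protein, rose in both genotypes. Control arrays spanned 8.73 to 9.05 in normoxia and 10.32 to 10.49 in hypoxia, and knockout arrays 9.11 to 9.50 and 10.15 to 10.22. Its change was 1.48 in controls and 0.91 in knockouts (interaction -0.57 ± 0.16, adjusted p = 0.574), and the knockouts were above the controls in normoxia and below them in hypoxia. Cxcl14, a chemokine, rose in controls by 1.08 and was 0.36 higher in knockouts. Its hypoxic arrays read 10.71, 10.56 and 10.22 in controls and 9.61, 9.62 and 9.68 in knockouts, which did not overlap, while the normoxic arrays overlapped (interaction -0.72 ± 0.28, adjusted p = 0.583).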
